A study of Homo sapiens with 30 samples.

Results

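The G2/M and mitosis genes are 42 genes that cells transcribe mainly in late S phase, G2 and mitosis. They were taken by gene symbol from the 60675 rows of a table of counts per gene, and all 42 were found. The rule uses no value measured in these samples, but the members were chosen with earlier results of these data known. The samples are mRNA libraries made from total RNA of HT29, a long-established human colorectal adenocarcinoma line, grown for 24 h with the ethanol extract of a Korean herbal formula or with solvent alone. The labels give Bojungikgi-tang, Sayeok-tang, Banhasasim-tang and Yijung-tang, each at 20, 100 and 500 µg/mL, and a vehicle of 0.1% DMSO (the series text gives 2%). The series text also says that an extract with an IC20 under 500 µg/mL was given at lower concentrations. The labels give 500 µg/mL for all 4, and doses are used as labelled. The vehicle, each Bojungikgi dose and each Sayeok dose had 3 libraries, each Banhasasim dose had 2 and each Yijung dose had 1, which gave 30 libraries in 13 groups. No genetic change to the cells is named in the labels, and every group is the same line at the same time.

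Entry into mitosis is driven by CDK1, a kinase that works only when bound to cyclin A or cyclin B. CDC25 phosphatases switch the kinase on, and polo-like and aurora kinases help to build the spindle on which kinesins move chromosomes. The spindle checkpoint holds the anaphase-promoting complex (APC/C) until every chromosome is attached, after which APC/C bound to CDC20 marks cyclin B and securin for destruction. Most of these genes are kept off in G0 and G1 by the DREAM complex. They are switched on in G2 by the MuvB core of that complex together with B-MYB and FOXM1, through a promoter element called the CHR and through CCAAT boxes bound by NF-Y. In a culture that is not synchronised, their level follows how many cells are in G2 and mitosis. In RNA from whole cultures, fewer cells in these phases and less RNA per such cell cannot be told apart.

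The total expected count per library was between 36273842 and 71625568 (median 50054029), and the 42 genes took between 0.4783% and 0.6488% of it. The lowest count of any of them in any library was 656, for CENPA. All 11 markers of colon epithelium were found at a mean of at least 1 CPM (counts scaled to a common library total), led by KRT8. The same level was reached by 1 of 7 fibroblast markers, 1 of 5 endothelial markers (KDR was at 0 in every library) and 3 of 7 leukocyte markers, of which LYZ, an enzyme gut epithelium also makes, stood at 1840 CPM and CD3E at 0.00476 CPM. There were 3 libraries that stood apart. Vehicle replicate 1 lay at -57.26 on the first principal component, Bojungikgi 500 µg/mL replicate 2 lay at 32.36 and Banhasasim 500 µg/mL replicate 2 at -28.73, with the other 27 between -18.45 and 13.35. Every library carries batch E in its title, but the sample codes put the vehicle in a code series of its own, so code series and vehicle cannot be told apart. Banhasasim and Yijung share a code series, and Bojungikgi and Sayeok share another. Between these pairs, extract and code series cannot be told apart either. Whether replicates came from separate cultures is not stated, so p-values measure the spread between libraries, which may be technical.

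The promoter sequences show what the 42 genes share in the DNA next to their starts. RefSeq promoter entries (GRCh38.p14) were found for 35 of the 42. The window read was the 150 bases before each start. It was searched on both strands for the CHR letters TTTGAA and TTTAAA, the second of which reads the same on both strands, and for CCAAT. Either form of the CHR letters was present for 24 of 35 genes (68.6%), against 11.1% of the 11946 tested genes with an entry and 15.3% of all 27305 genes of the table. CCAAT was present for 29 of 35 (82.9%), against 32.1% of tested genes and 27.8% of all genes. A CHR and a CCAAT in the same window occurred for 21 of 35 (60.0%), against 3.42% of tested genes and 4.04% of all genes. These are matches of letters and do not show a bound site. Windows are printed 5′ to 3′ for 7 genes that lay among the lower ones in the comparisons with the vehicle (CCNB1, CCNB2, PLK1, CDC20, KIF20A, CENPA and UBE2S) and for 3 that passed no test there (CCNA2, TOP2A and MKI67, except MKI67 in 1 comparison). Capitals mark the CHR and CCAAT letters on either strand.
CCNB1 (chr5:69167000-69167149, + strand): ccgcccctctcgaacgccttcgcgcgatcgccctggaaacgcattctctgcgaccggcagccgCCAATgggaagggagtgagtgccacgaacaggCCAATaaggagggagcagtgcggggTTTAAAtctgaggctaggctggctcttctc
CCNB2 (chr15:59104996-59105145, + strand): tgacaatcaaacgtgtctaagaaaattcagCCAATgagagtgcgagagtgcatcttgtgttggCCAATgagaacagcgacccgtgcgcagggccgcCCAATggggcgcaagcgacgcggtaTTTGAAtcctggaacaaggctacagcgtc
PLK1 (chr16:23678739-23678888, + strand): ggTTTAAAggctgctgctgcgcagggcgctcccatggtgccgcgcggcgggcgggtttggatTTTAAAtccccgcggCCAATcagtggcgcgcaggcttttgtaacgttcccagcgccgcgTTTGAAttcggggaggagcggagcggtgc
CDC20 (chr1:43358831-43358980, + strand): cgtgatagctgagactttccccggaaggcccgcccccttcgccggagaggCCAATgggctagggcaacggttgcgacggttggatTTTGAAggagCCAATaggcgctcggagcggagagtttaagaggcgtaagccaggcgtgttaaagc
KIF20A (chr5:138178962-138179111, + strand): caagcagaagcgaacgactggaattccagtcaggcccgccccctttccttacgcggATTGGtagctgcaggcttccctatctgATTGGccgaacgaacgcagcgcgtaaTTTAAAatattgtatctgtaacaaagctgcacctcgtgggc
CENPA (chr2:26785906-26786055, + strand): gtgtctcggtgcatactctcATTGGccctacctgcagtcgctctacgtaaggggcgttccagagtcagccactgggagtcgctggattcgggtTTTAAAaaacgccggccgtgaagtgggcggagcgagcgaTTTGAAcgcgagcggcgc
UBE2S (chr19:55407789-55407938, - strand): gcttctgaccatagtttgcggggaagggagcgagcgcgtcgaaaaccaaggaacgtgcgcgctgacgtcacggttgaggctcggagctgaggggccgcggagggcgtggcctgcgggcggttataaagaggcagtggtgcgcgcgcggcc
CCNA2 (chr4:121823884-121824033, - strand): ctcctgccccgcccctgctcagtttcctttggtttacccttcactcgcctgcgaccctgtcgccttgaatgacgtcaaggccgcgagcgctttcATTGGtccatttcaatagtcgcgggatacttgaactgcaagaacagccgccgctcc
TOP2A (chr17:40417897-40418046, - strand): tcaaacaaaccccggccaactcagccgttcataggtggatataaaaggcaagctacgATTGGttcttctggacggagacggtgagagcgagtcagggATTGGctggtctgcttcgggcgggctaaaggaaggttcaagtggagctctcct
MKI67 (chr10:128126424-128126573, - strand): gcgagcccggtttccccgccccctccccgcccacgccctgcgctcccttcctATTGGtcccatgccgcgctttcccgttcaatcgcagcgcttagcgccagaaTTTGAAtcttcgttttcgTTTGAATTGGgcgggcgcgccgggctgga

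In CCNB1 the CHR letters began 30 bases before the start, with CCAAT at 55 and 87 bases. CCNB2 had TTTGAA at 29 bases and CCAAT at 54, 87 and 120 bases. PLK1 had TTTGAA at 29 bases, TTTAAA at 88 and 148 bases and CCAAT at 73 bases. In MKI67 the TTTGAA at 29 bases shared 1 letter with the CCAAT on the other strand at 24 bases. The window of UBE2S, the gene with the largest difference from the vehicle, held neither kind of letters, and those of CCNA2 and TOP2A held CCAAT but no CHR letters. That says only that these letters are not in these windows. The 10 printed windows were chosen and do not stand for all members. KIF2C, called lower in all 9 comparisons with the vehicle, held neither kind of letters. Of genes called in none, ASPM, BUB1B, CENPF, ECT2, NUSAP1 and PRC1 held CHR letters. BUB1, KIF20B and NEK2, like CCNA2 and TOP2A, held no CHR letters. The 24 genes with CHR letters had a median log2 difference of -0.14 from the vehicle at 20 µg/mL Sayeok, and the 11 without them had -0.22. The corresponding medians were -0.14 and -0.18 for Bojungikgi and -0.18 and -0.19 for Banhasasim. These are medians of 24 and 11 genes, and the difference between them was not tested. The 7 members without a promoter entry are in neither set. Called lower were 12 of 24 with and 6 of 11 without them for Sayeok. The counts were 11 of 24 and 5 of 11 for Bojungikgi and 12 of 24 and 5 of 11 for Banhasasim. Only these exact letters were searched, so genes counted as without them may hold other forms. The part of the CHR in these differences was not tested.

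Levels are given as CPM after TMM normalisation, a scaling that sets libraries to a common centre. Per 1 kb of exon, the highest means over the 30 libraries were those of TPX2, a spindle assembly factor, at 78.1 ± 3.9 CPM (SD over libraries), UBE2C, the ubiquitin-conjugating enzyme that works with the APC/C, at 76.9 ± 8.98, and TOP2A, topoisomerase II, at 75.6 ± 3.29. CDC20, the APC/C activator, followed at 72.5 ± 6.28 and CCNB1, cyclin B1, at 61.8 ± 5.94. The lowest were CENPE, a kinetochore motor, at 6.96 ± 0.58, KIF14, a cytokinesis kinesin, at 6.8 ± 0.627 and CDC25C, a CDK1-activating phosphatase, at 5.46 ± 0.331 CPM per kb. TPX2, UBE2C and TOP2A lay within 1 SD of each other, as did CENPE and KIF14. CDC20 and CCNB1 were further apart than the SD of either, and so were KIF14 and CDC25C. Exons of 16 members overlap those of another annotated gene. On the same strand this holds for BUB1B (with the readthrough gene BUB1B-PAK6), CENPA (with SLC35F6), NUSAP1 and PRC1. On the opposite strand it holds for 13, CCNA2 (EXOSC9), CDC25C (FAM53C), PLK1 (ERN2 and another), KIF4A (PDZD11), KIF18A (METTL15), KIF20A (BRD8 and CDC23), ANLN (KIAA0895), FOXM1 (ITFG2), PRC1 (PRC1-AS1), HMMR (HMMR-AS1), MAD2L1, KIF2C and KIF23. How strand was treated in counting is not stated in the labels, and reads in these overlaps cannot be assigned with certainty.

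**Figure D1:**
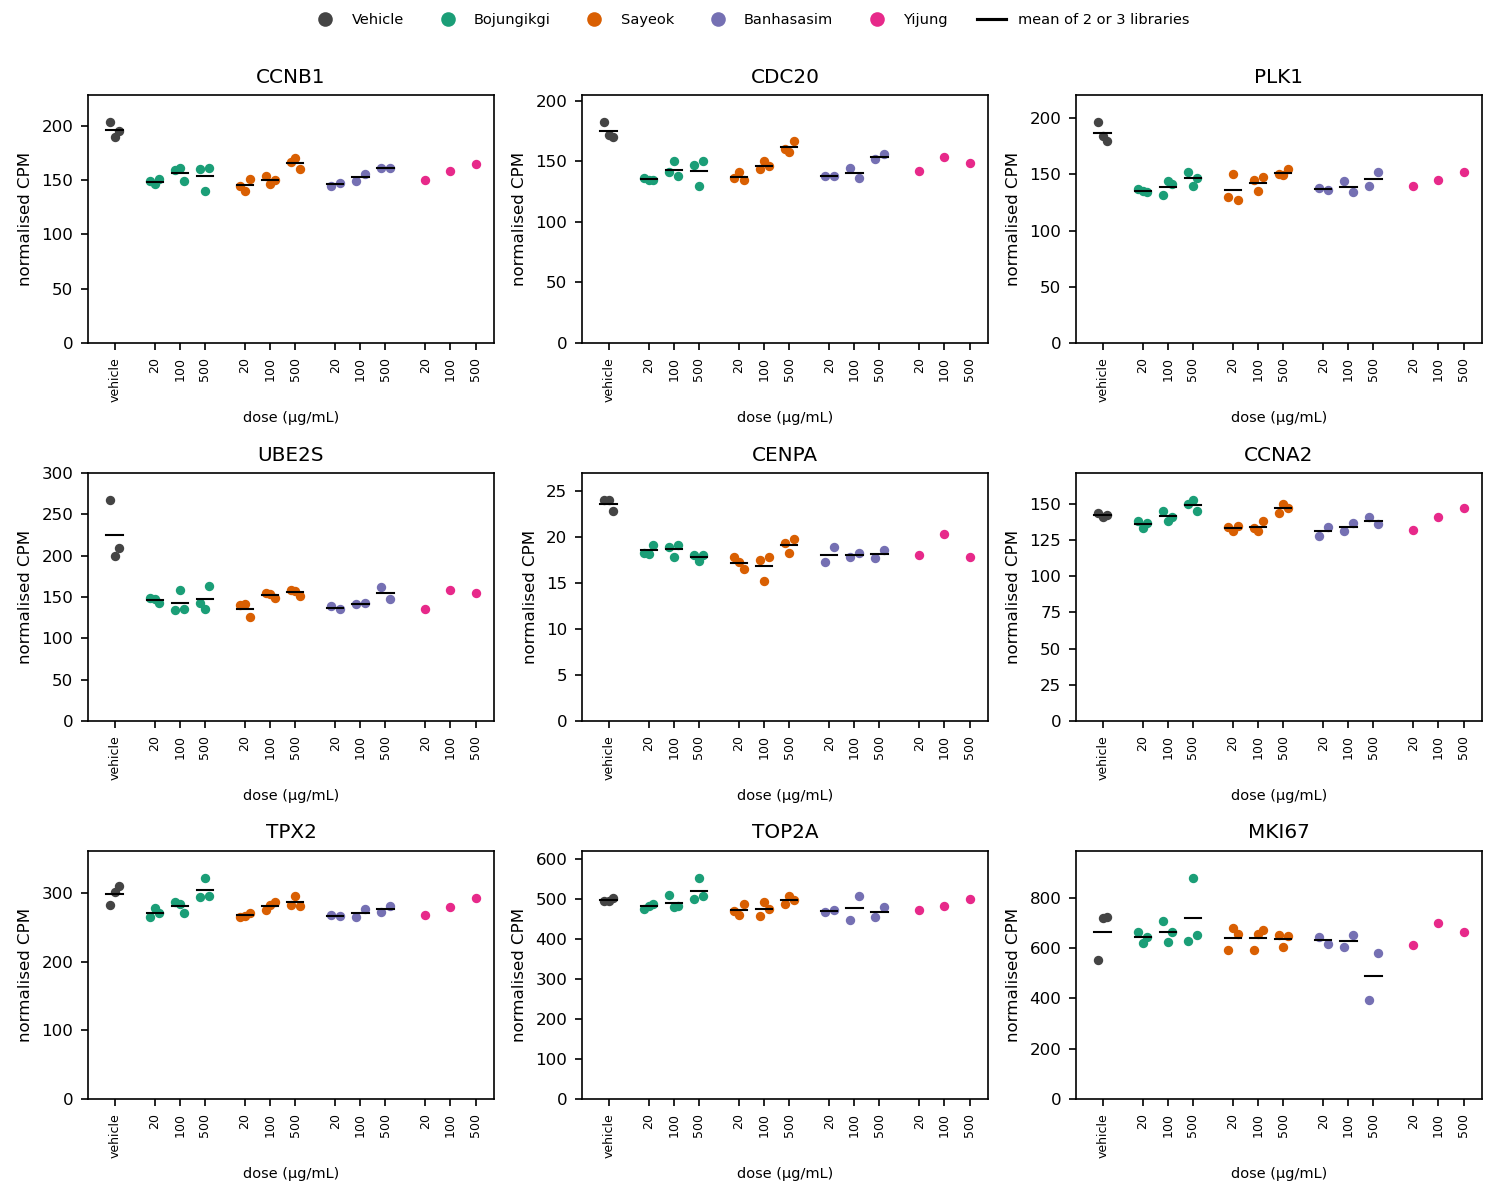
Normalised level (CPM, linear axes from 0) of 9 genes in each of the 30 libraries, by group and dose. Points are libraries and bars are means of 2 or 3 libraries. CCNB1, CDC20, PLK1, UBE2S and CENPA are lower in every extract library than in every vehicle library. CCNA2, TPX2, TOP2A and MKI67 overlap with the vehicle.

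The first question was whether these genes changed with the dose of the same extract. Between 20 and 500 µg/mL of Sayeok, 3 of 42 rose and none fell. They were CDC20, CCNB1 and CCNA2, cyclin A2. Of all 18783 genes tested, 1.14% were called higher and 2.03% lower in this comparison (edgeR's quasi-likelihood test, Benjamini-Hochberg adjusted p below 0.05 over all genes). The other 39 were not called. In all, 39 of 42 were fitted higher at 500 than at 20 µg/mL, against 51.4% of all genes. The median log2 difference of the members was 0.088 against 0.004 for all genes. An unadjusted p below 0.05 was reached by 19 of the 42, against 13.9% of all genes.

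CDC20 stood at 136, 141 and 135 CPM in the 3 libraries at 20 µg/mL, at 144, 150 and 146 CPM at 100 µg/mL and at 160, 158 and 167 CPM at 500 µg/mL. All libraries at 500 µg/mL were above all at 100 µg/mL, and those were above all at 20 µg/mL. From 20 to 500 µg/mL it rose by 0.24 on the log2 scale (SE 0.05, adjusted p = 0.00315, edgeR). CCNB1 stood at 145, 140 and 151 CPM at 20 µg/mL, at 154, 146 and 150 CPM at 100 µg/mL and at 167, 170 and 160 CPM at 500 µg/mL. The lower doses overlapped, and the highest dose was above both. Its rise was 0.20 (SE 0.05, adjusted p = 0.0225, edgeR). CCNA2, which pairs with CDK2 in S phase and with CDK1 in G2, stood at 134, 131 and 135 CPM at 20 µg/mL, at 133, 131 and 138 CPM at 100 µg/mL and at 144, 150 and 147 CPM at 500 µg/mL. Again only the highest dose was separate from the others. Its rise was 0.14 (SE 0.04, adjusted p = 0.0347, edgeR). Leaving out any 1 of the 6 Sayeok libraries kept CDC20 called (adjusted p between 0.00818 and 0.04). CCNA2 was no longer called without any 1 of them (0.0538 to 0.164). CCNB1 was no longer called without replicate 1 or 2 of either dose (0.0827 to 0.148). Without a filter on low counts neither CCNB1 (adjusted p = 0.0556) nor CCNA2 (0.358) was called, and CCNA2 was not called on these 2 groups alone either (0.0778).

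Other members did not pass the test between these doses. PLK1, the polo-like kinase, differed by 0.16 (SE 0.06, adjusted p = 0.15) and UBE2S, the enzyme that extends ubiquitin chains on APC/C substrates, by 0.19 (SE 0.08, adjusted p = 0.286). AURKA, aurora kinase A, differed by 0.01 (SE 0.04) and MKI67, the gene of the Ki-67 proliferation marker, by -0.01 (SE 0.13). By role, the 3 called were 2 of the 6 genes of cyclins, CDK1 and its phosphatases and 1 of the 8 of the checkpoint and anaphase. Between 100 and 500 µg/mL none of 42 was called (0.687% of all genes were higher and 1.04% lower), and DESeq2 called 1. There 15 members had an unadjusted p below 0.05, against 13.7% of all genes. Between 20 and 100 µg/mL none was called either by edgeR or by DESeq2 (0.0% of all genes in either direction). There 4 members had an unadjusted p below 0.05, against 4.72% of all genes.

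For Bojungikgi, 1 of 42 rose between 20 and 500 µg/mL and none fell (0.602% of all genes were called higher and 1.16% lower). It was TPX2, which activates AURKA on spindle microtubules. TPX2 stood at 266, 278 and 271 CPM at 20 µg/mL, at 288, 284 and 272 CPM at 100 µg/mL and at 294, 323 and 296 CPM at 500 µg/mL. The libraries at 500 µg/mL were above all others of this extract, with replicate 2, which stood apart, the highest. Its rise was 0.16 (SE 0.04, adjusted p = 0.0461, edgeR). The call was lost without any 1 of the 6 libraries (adjusted p between 0.0674 and 0.273) and with DESeq2's size factors in place of TMM (0.0558). In all, 40 of 42 genes were fitted higher at 500 µg/mL, against 50.2% of all genes. The median difference was 0.099 against 0.001 for all genes. An unadjusted p below 0.05 was reached by 17 of the 42, against 12.9% of all genes.

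Other members came near the threshold without passing it. KIF14 differed by 0.23 (SE 0.07, adjusted p = 0.121), and NEK2, a centrosome kinase, by 0.17 (SE 0.05, adjusted p = 0.121). CCNA2 differed by 0.13 (SE 0.04, adjusted p = 0.0786). CCNB1 differed by 0.05 (SE 0.05) and CDC20 by 0.07 (SE 0.05). In replicate 2 at 500 µg/mL, CCNB1 stood at 140 CPM and CDC20 at 130 CPM, the lowest of the 9 Bojungikgi libraries for both. MKI67 (881 CPM), TOP2A (554), CENPF (320), ASPM (249) and KIF11 (136) were higher there than in any of the other 29 libraries. Without that library CCNB1 differed by 0.11 (adjusted p = 0.345), and MKI67 by -0.01 in place of 0.16. No member was called between 100 and 500 µg/mL by edgeR or DESeq2 (0.181% of all genes higher, 0.272% lower). There 7 members had an unadjusted p below 0.05, against 8.96% of all genes. None was called between 20 and 100 µg/mL either, also by DESeq2 (0.0% higher, 0.0106% lower). There 1 member had an unadjusted p below 0.05, against 2.32% of all genes.

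For Banhasasim none of the 42 was called between 20 and 500 µg/mL by edgeR or DESeq2, although this extract had the most called genes of the 3 over these doses (3.82% of all genes higher and 4.0% lower). The median of the members was 0.02 against 0.005 for all genes. Of the members 25 were fitted higher and 17 lower, while 51.0% of all genes were fitted higher. An unadjusted p below 0.05 was reached by 6 of the 42, against 20.6% of all genes. In CPM, CDC20 stood at 138 in both libraries of 20 µg/mL, at 145 and 136 with 100 µg/mL and at 152 and 156 with 500 µg/mL. Its difference of 0.16 (SE 0.06, adjusted p = 0.0933) was the nearest to the threshold. CCNB1 stood at 145 and 147 CPM at 20 µg/mL, at 149 and 156 CPM at 100 µg/mL and at 161 and 161 CPM at 500 µg/mL, a difference of 0.14 (SE 0.06, adjusted p = 0.169). The 21 members with the longest exons had a median of -0.05 and the 21 with the shortest 0.05, and no member of either set was called. Genes at large split alike. Their medians were -0.03 for those longer than the members' median length and 0.05 for the rest. MKI67, the longest, stood at 645 and 616 CPM at 20 µg/mL and at 395 and 581 CPM at 500 µg/mL, with the lowest value of all 30 libraries in replicate 2, which stood apart. Its difference was -0.37 (SE 0.16, adjusted p = 0.187). This extract had 2 libraries a dose, and the SEs of its members are wider than those of the others. Between 100 and 500 µg/mL none was called by edgeR or DESeq2 (2.1% of all genes higher, 2.06% lower). There 4 members had an unadjusted p below 0.05, against 16.2% of all genes. Between 20 and 100 µg/mL none was called by edgeR or DESeq2 (0.0799% higher, 0.00532% lower). There 0 members had an unadjusted p below 0.05, against 2.74% of all genes.

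**Figure D2:**
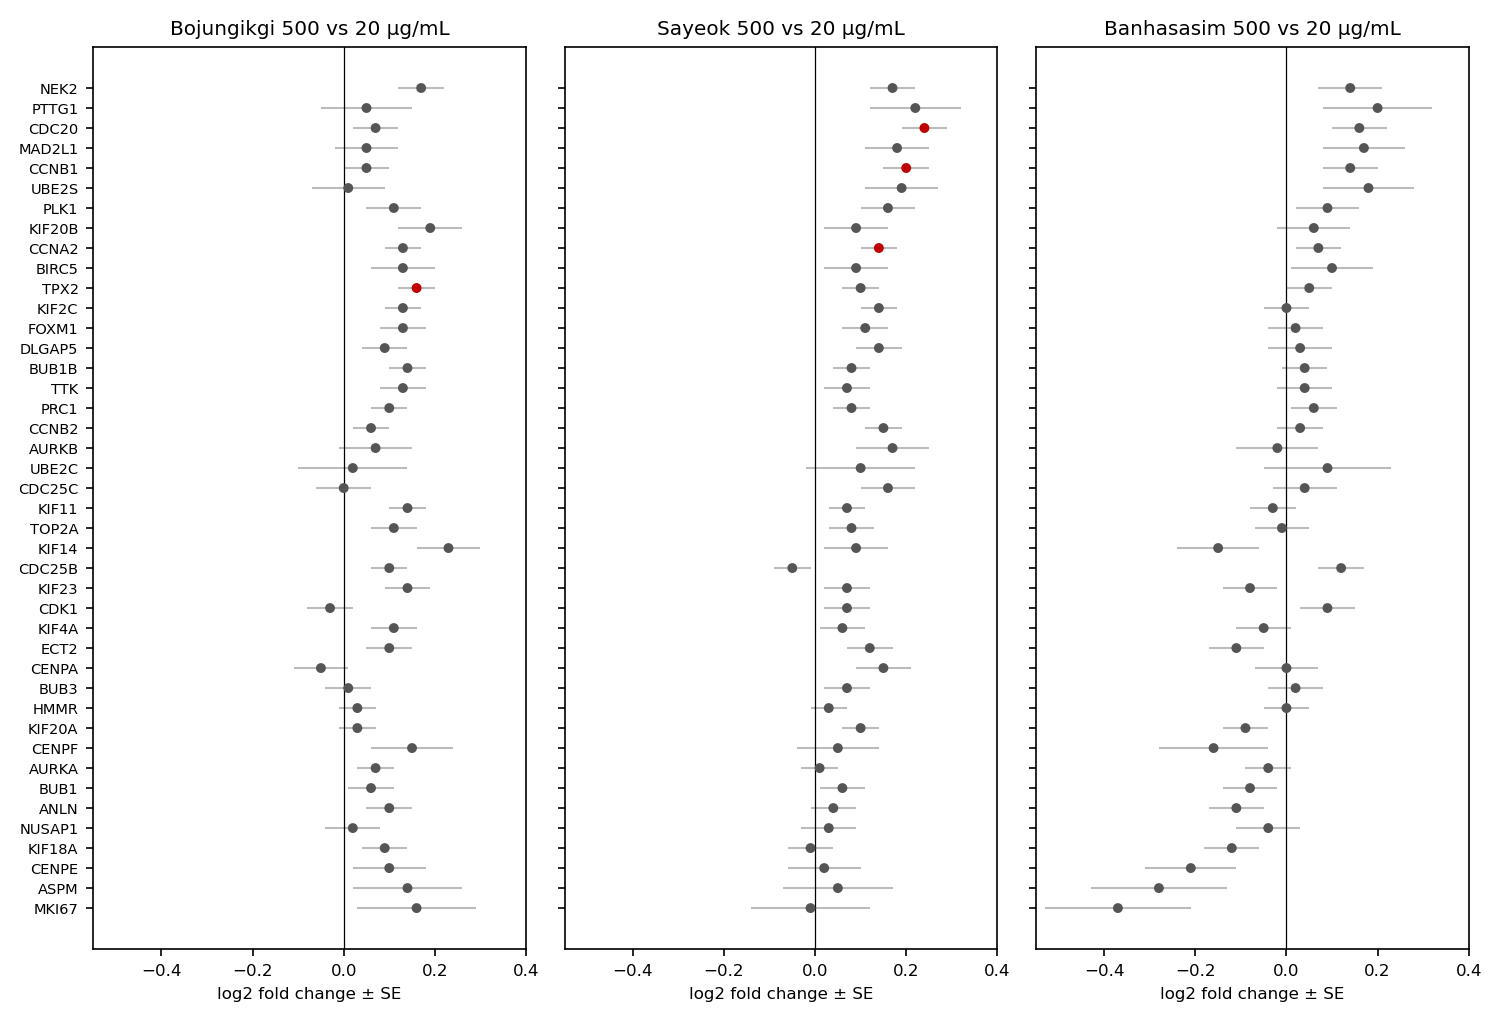
Log2 difference between 500 and 20 µg/mL for each of the 42 genes (points) with its SE (bars), for 3 extracts. Red points passed an adjusted p of 0.05: TPX2 for Bojungikgi and CDC20, CCNB1 and CCNA2 for Sayeok. For Banhasasim none passed, and MKI67 and ASPM lie lowest.

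Whether the dose response differed between extracts was tested as the difference of their 500 against 20 µg/mL changes. No member was called in any of the 3 pairs by edgeR. For Sayeok against Bojungikgi, 0.0213% of all genes were called higher and 0.00532% lower, and DESeq2 called no member. In this pair 4 members had an unadjusted p below 0.05, against 4.62% of all genes. CDC20 differed there by 0.16 (SE 0.07, adjusted p = 0.882), so its call for Sayeok and not for Bojungikgi does not show that the extracts differ. For Sayeok against Banhasasim, 0.298% of all genes were higher and 0.745% lower, and DESeq2 called no member. In this pair 4 members had an unadjusted p below 0.05, against 9.41% of all genes. For Banhasasim against Bojungikgi, 1.31% of all genes were higher and 0.745% lower, and DESeq2 called 1 member. In this pair 11 members had an unadjusted p below 0.05, against 15.3% of all genes. KIF14 came nearest to the threshold, at -0.39 (SE 0.12, adjusted p = 0.0919). Here 31 of 42 were fitted lower, with a median of -0.089, while 50.3% of all genes were fitted higher. Both libraries that stood apart at 500 µg/mL enter this pair.

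The second question was how each extract and dose compared with the vehicle. All of these comparisons use the same 3 vehicle libraries, so their values are given side by side and one is not support for another. At 20 µg/mL, 21 of 42 genes were lower with Bojungikgi, 23 with Sayeok and 21 with Banhasasim, and none was higher. The shares of all genes called lower were 9.2%, 10.1% and 6.23%, and called higher 9.11%, 8.87% and 6.43%. The medians of the members were -0.153, -0.196 and -0.186, with those of all genes at -0.002, -0.004 and -0.005. At 100 µg/mL, 19, 22 and 19 were lower and none was higher, against 8.2%, 7.57% and 5.56% of all genes lower and 7.58%, 6.47% and 6.3% higher. At 500 µg/mL, 17 were lower and 2 higher with Bojungikgi (15.4% and 14.3% of all genes), 13 lower with Sayeok (8.27%, with 8.33% higher) and 20 lower with Banhasasim (7.12%, with 8.16% higher). At 20 and 100 µg/mL of the 3 extracts no member was higher at an unadjusted p below 0.05 or by DESeq2. At 500 µg/mL, 3 were so for Sayeok at an unadjusted p and 1 by DESeq2, and 0 by either for Banhasasim. The members called lower were thus a larger share of the 42 than of all genes in each of the 9 comparisons. Without vehicle replicate 1, between 12 and 19 were lower over the 9 comparisons (1.26% to 7.94% of all genes), and for Bojungikgi at 100 µg/mL the count went from 19 to 12. Without Banhasasim 500 µg/mL replicate 2 the count for that dose went from 20 to 12, the count at 100 µg/mL from 19 to 12 or 8 without replicate 2 or 3, and that at 20 µg/mL from 21 to 11 or 10. Fitted on the libraries of each comparison alone, with fewer libraries to estimate the spread, the counts ran from 0 to 18 (0.123% to 6.15% of all genes lower).

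There were 10 genes called lower in each of the 9 comparisons: CCNB1, CCNB2, PLK1, AURKA, CENPA, KIF2C, KIF20A, UBE2S, BIRC5 and HMMR. Another 12 were called in none: CCNA2, BUB1, BUB1B, BUB3, CENPF, KIF20B, TOP2A, NUSAP1, PRC1, ECT2, ASPM and NEK2. Of the 10, CENPA, KIF2C, KIF20A, PLK1 and HMMR are among the members whose exons overlap another gene. All 9 comparisons share the vehicle libraries, and in single comparisons 5.56% to 15.4% of all genes were called lower. How many of all genes were called lower in all 9 was not counted. Recurrence over the 9 therefore cannot be read as particular to these 10 genes.

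**Figure D3:**
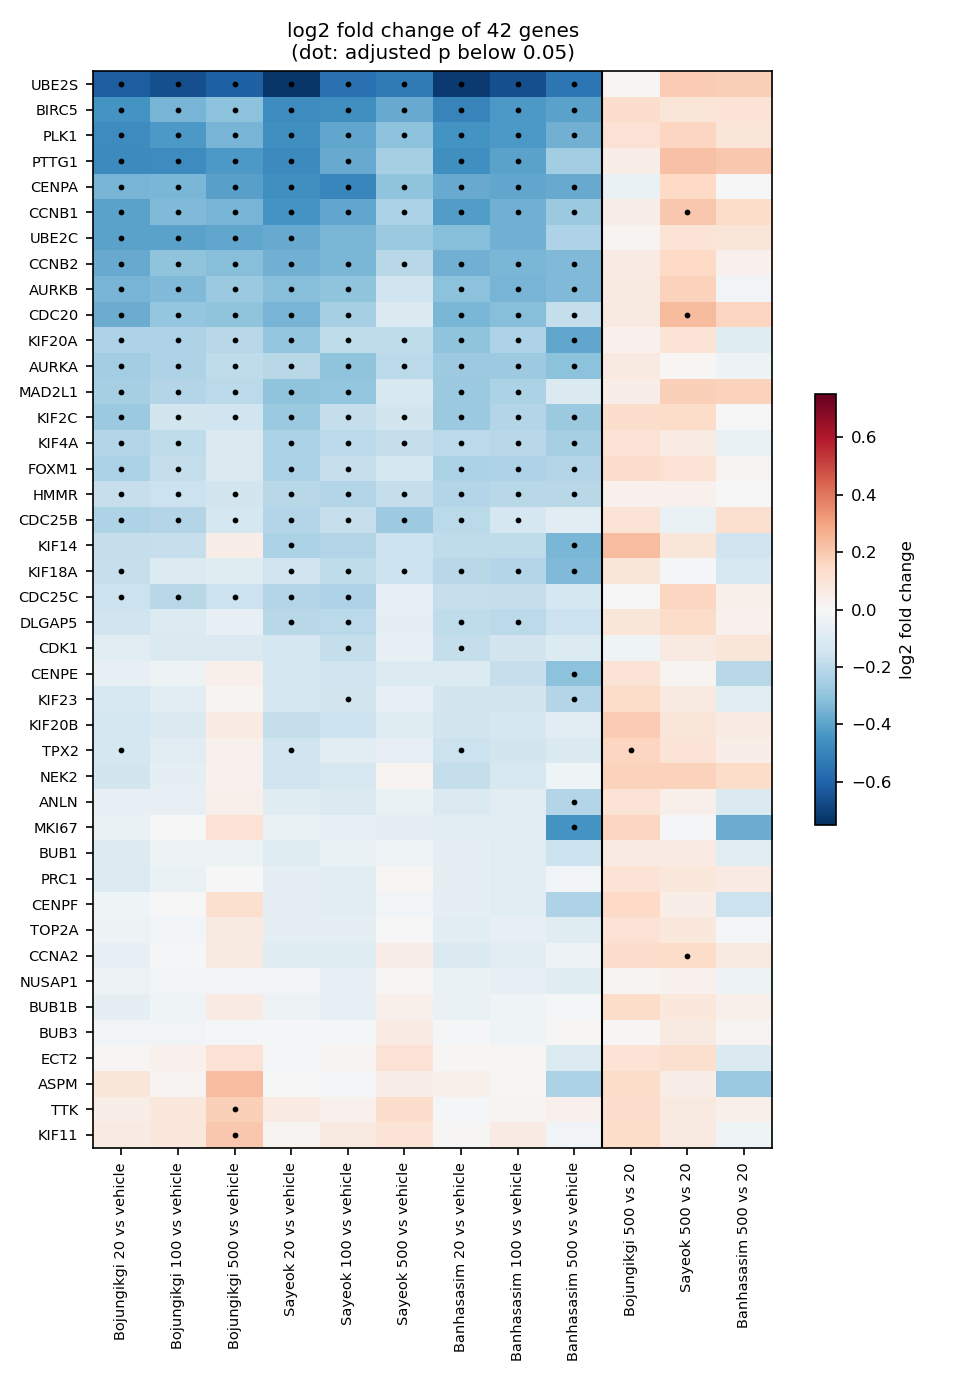
Log2 fold change of the 42 genes (rows, ordered by their mean over the 9 comparisons with the vehicle) in those 9 comparisons and, right of the line, between 500 and 20 µg/mL. Blue is lower, red is higher and a dot marks an adjusted p below 0.05. UBE2S, BIRC5 and PLK1 are at the top with -0.73 to -0.31, and TTK and KIF11 at the bottom are higher with Bojungikgi at 500 µg/mL.

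Among the cyclins and CDK1, CCNB1 was at 204, 190 and 195 CPM in the vehicle libraries and between 140 and 170 CPM (median 151) in the 27 extract libraries. None of the extract libraries reached the lowest vehicle library. Its differences from the vehicle were -0.40 (Bojungikgi), -0.44 (Sayeok) and -0.42 (Banhasasim) at 20 µg/mL and -0.35, -0.24 and -0.28 at 500 µg/mL, each with an SE of 0.05. CCNB2, cyclin B2, was at 183, 166 and 180 CPM against 131 to 156 CPM, and was lower by between 0.21 and 0.38 on the log2 scale. CCNA2, which partners the same kinase, was at 144, 141 and 142 CPM in the vehicle and between 128 and 153 CPM in the extracts, with 8 extract libraries above all 3 vehicle libraries. It was called in no comparison. CDK1 itself was at 123, 111 and 116 CPM in the vehicle and between 98.5 and 117 CPM in the extracts. It was called in 2 of the 9, Sayeok 100 µg/mL and Banhasasim 20 µg/mL (-0.18 in both, adjusted p = 0.0273 and 0.0419, edgeR), and in neither without vehicle replicate 1 (-0.14 in both, 0.191 and 0.205) or on the groups compared alone (0.103 and 0.163). CDC25B, which activates CDK1 at the centrosome, was at 141 to 143 CPM in the vehicle and at 117 to 137 CPM in the extracts, and was called lower in all but Banhasasim 500 µg/mL.

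Among the checkpoint and anaphase genes, UBE2S lay furthest from the vehicle of all 42. It was at 268, 200 and 209 CPM in the vehicle libraries and between 126 and 163 CPM (median 148) in the extract libraries. The groups did not overlap, and vehicle replicate 1 was the highest of all. Its differences ran from -0.53 (Sayeok 500 µg/mL, SE 0.08, adjusted p = 0.000206) to -0.73 (Sayeok 20 µg/mL, SE 0.08, adjusted p = 2.52e-05, edgeR). Without vehicle replicate 1 the difference at 500 µg/mL was -0.39 for Sayeok, -0.48 for Bojungikgi and -0.40 for Banhasasim, and each was still called. On the groups compared alone, UBE2S was called at 500 µg/mL for Sayeok (adjusted p = 0.0197, edgeR). It was then not called for Bojungikgi (0.0582) or Banhasasim (0.0695). CDC20 was at 183, 172 and 170 CPM in the vehicle and between 130 and 167 CPM in the extracts. It was called lower in all but Sayeok 500 µg/mL, where it was -0.11 (SE 0.05, adjusted p = 0.0979). PTTG1, securin, which blocks separase until anaphase, ran from -0.25 to -0.48 and was not called with Sayeok or Banhasasim at 500 µg/mL. MAD2L1, the checkpoint protein that binds CDC20, was called lower in 7 of the 9 comparisons. BUB1, BUB1B and BUB3, whose products gather at unattached kinetochores, were called in no comparison, and their differences lay between -0.16 and 0.06. With a correction for exon length and GC content, chosen after seeing the data, BUB1 was lower at 20 µg/mL by 0.21 with Bojungikgi, 0.20 with Sayeok and 0.19 with Banhasasim on the log2 scale (adjusted p = 0.000264, 0.000282 and 0.00225, edgeR). BUB1B was then called lower with Bojungikgi (-0.15, adjusted p = 0.0105) and Sayeok (-0.12, adjusted p = 0.0276), and BUB3 was not called at that dose (adjusted p between 0.124 and 0.219).

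Among the mitotic kinases, PLK1 was at 197, 184 and 180 CPM in the vehicle libraries and between 127 and 155 CPM in all extract libraries. Its differences ran from -0.31 to -0.47, each with an SE of 0.06. AURKA was at 171, 167 and 172 CPM in the vehicle and between 133 and 154 CPM in the extracts, and its differences ran from -0.19 to -0.31. AURKB, the kinase of the chromosomal passenger complex, was called lower in all but Sayeok 500 µg/mL. TTK, which starts checkpoint signalling, differed by between -0.01 and 0.18 and was called in 1 of the 9 comparisons. It was at 44.9, 46.3 and 48.6 CPM in the vehicle, between 45.2 and 54.3 CPM in the 27 extract libraries, of which 12 were above every vehicle library, and at 54.0, 53.5 and 51.5 CPM with Bojungikgi at 500 µg/mL, and was higher there by 0.18 (SE 0.05, adjusted p = 0.00618, edgeR). Without vehicle replicate 1 that difference was 0.15 and not called (adjusted p = 0.0504), nor was it in a fit of these 2 groups alone (0.0884). The centrosome kinase NEK2 was called in no comparison.

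Among the centromere genes and kinesins, CENPA, the histone H3 variant that marks centromeres, was at 24.1, 24.0 and 22.9 CPM in the vehicle and between 15.2 and 20.3 CPM in the extracts, with differences from -0.30 to -0.49. CENPE was called with Banhasasim at 500 µg/mL alone (-0.31, SE 0.09, adjusted p = 0.0192), and not without either library of that dose (0.0623 and 0.142). CENPF, a kinetochore and nuclear envelope protein, was called nowhere. KIF2C, which takes microtubules apart at kinetochores, and KIF20A, a kinesin needed for cytokinesis, were lower in all 9 comparisons. KIF11, the motor that pushes spindle poles apart, differed by between -0.02 and 0.20 and was called in 1 comparison. It was at 106, 110 and 116 CPM in the vehicle and at 122, 136 and 123 CPM with Bojungikgi at 500 µg/mL, higher by 0.20 (SE 0.04, adjusted p = 0.00214, edgeR). The groups did not overlap, and the difference was 0.15 and still called without replicate 2 of that dose (adjusted p = 0.0216). In a fit of these 2 groups alone it was not called (adjusted p = 0.0955). KIF20B, of the same subfamily as KIF20A, was called in no comparison.

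Among the spindle and cytokinesis genes, BIRC5, survivin, a subunit of the passenger complex, and HMMR, a microtubule-binding protein of spindle poles, were lower in all 9 comparisons. BIRC5 lay between -0.31 and -0.50 and HMMR between -0.14 and -0.22. The midzone bundler PRC1, the spindle protein NUSAP1, the RhoA activator ECT2 and the spindle pole protein ASPM were called in none. TPX2 was called lower at 20 µg/mL of each of the 3 extracts (-0.13, -0.15 and -0.16) and at no higher dose. FOXM1, the transcription factor, was lower in 7 of 9 comparisons, with -0.24 at 20 µg/mL in each of the 3 extracts (SE 0.05, adjusted p between 0.00131 and 0.00407, edgeR). TOP2A was at 495, 496 and 502 CPM in the vehicle and between 447 and 554 CPM in the extracts, and was called nowhere. MKI67 was at 552, 720 and 725 CPM in the vehicle and between 395 and 881 CPM in the extracts. It was called lower with Banhasasim at 500 µg/mL alone (-0.45, SE 0.15, adjusted p = 0.0452, edgeR), and not without replicate 2 of that dose (-0.19, adjusted p = 0.473), vehicle replicate 2 (-0.39, 0.128) or vehicle replicate 3 (-0.38, 0.115).

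In single libraries, the median over the 42 genes of the log2 ratio to the vehicle mean was between -0.013 and 0.014 in the vehicle libraries and between -0.233 and -0.033 in the extract libraries. It was -0.095 to -0.033 at 500 µg/mL Bojungikgi and -0.131 to -0.036 at 500 µg/mL Sayeok. At 20 µg/mL of these extracts it was -0.171 to -0.128 and -0.18 to -0.14, so for both the highest and lowest doses did not overlap. Banhasasim at 500 µg/mL (-0.233 and -0.16) lay on both sides of its values at 20 µg/mL (-0.192 and -0.193). With Bojungikgi and Sayeok the lowest dose thus lay further from the vehicle than the highest. Cytosolic ribosomal protein genes also separated vehicle from extract libraries. They took 6.91%, 5.887% and 5.561% of counts in the vehicle libraries and between 3.775% and 5.516% (median 5.255%) in the 27 extract libraries, without overlap. Among extract libraries no relation of the 2 measures was tested, and both libraries named next stood apart on the first principal component. Bojungikgi 500 µg/mL replicate 2 had the lowest share (3.775%) and the median nearest the vehicle (-0.033). Banhasasim 500 µg/mL replicate 2 had 5.43% and the median furthest from it (-0.233). The part of ribosomal protein genes in the result was not tested.

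**Figure D4:**
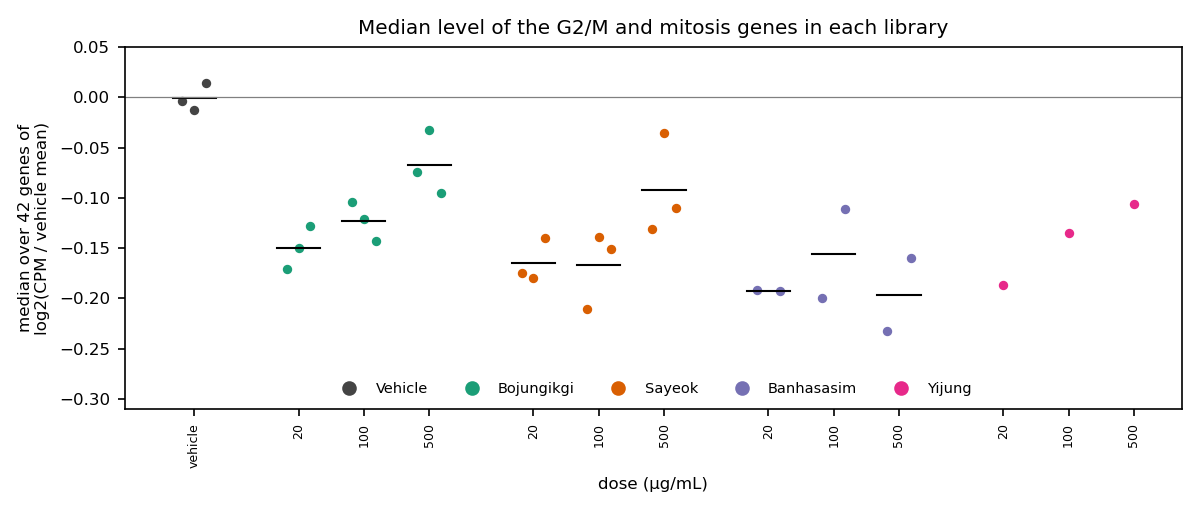
Median over the 42 genes of the log2 ratio of CPM to the vehicle mean, 1 point a library, with group means as bars. Vehicle libraries lie between -0.013 and 0.014 and all extract libraries below them, between -0.233 and -0.033. Yijung has 1 library a dose.

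Exon length moved with the difference from the vehicle. The 21 members with at most 4314 nucleotides of exon had medians between -0.28 and -0.18 over the 9 comparisons. The 21 with at least 4476 nucleotides had medians between -0.22 and 0.04, and between -0.09 and 0.04 without Banhasasim 500 µg/mL. At 20 µg/mL Sayeok, 17 shorter and 6 longer members were called lower. Genes at large showed a smaller split in the same comparison, with medians of -0.09 for those as short as the shorter members and 0.06 for longer ones. Across the 42 genes, which are not independent, Spearman's rho of length and difference was 0.60 in that comparison and between 0.15 and 0.69 over the 9. With a correction for length and GC content, chosen after seeing the data, the members called lower numbered 22 to 36 over the 9 comparisons (5.37% to 15.5% of all genes) and the medians of all 42 were -0.243 to -0.148. At 20 µg/mL Sayeok, 17 of the 21 longer members were then called lower. At 20 µg/mL Sayeok, KIF20B differed by -0.36 (SE 0.06, adjusted p = 0.000299) and TOP2A by -0.22 (SE 0.03, adjusted p = 0.000132, edgeR), where the uncorrected values of -0.18 and -0.07 were not called. The other 4 longer members, MKI67, ASPM, BUB3 and TTK, were not called with the correction either (adjusted p = 0.134, 0.0793, 0.124 and 0.533). KIF11 and TTK, higher with Bojungikgi at 500 µg/mL before the correction, differed there by 0.05 and 0.07 after it (adjusted p = 0.202 for both). In the same corrected fit, 8 members were higher at 500 than at 20 µg/mL for Sayeok (CCNA2, CCNB1, CCNB2, CDC20, ECT2, FOXM1, KIF2C and PRC1, against 2.52% of all genes), 6 for Bojungikgi (CCNA2, KIF11, KIF14, KIF23, NEK2 and TPX2, against 1.4%) and 1 for Banhasasim (CCNB1, against 5.63%). None was lower, against 2.52%, 2.38% and 5.0% of all genes. Which members passed thus changed with the length correction.

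**Figure D5:**
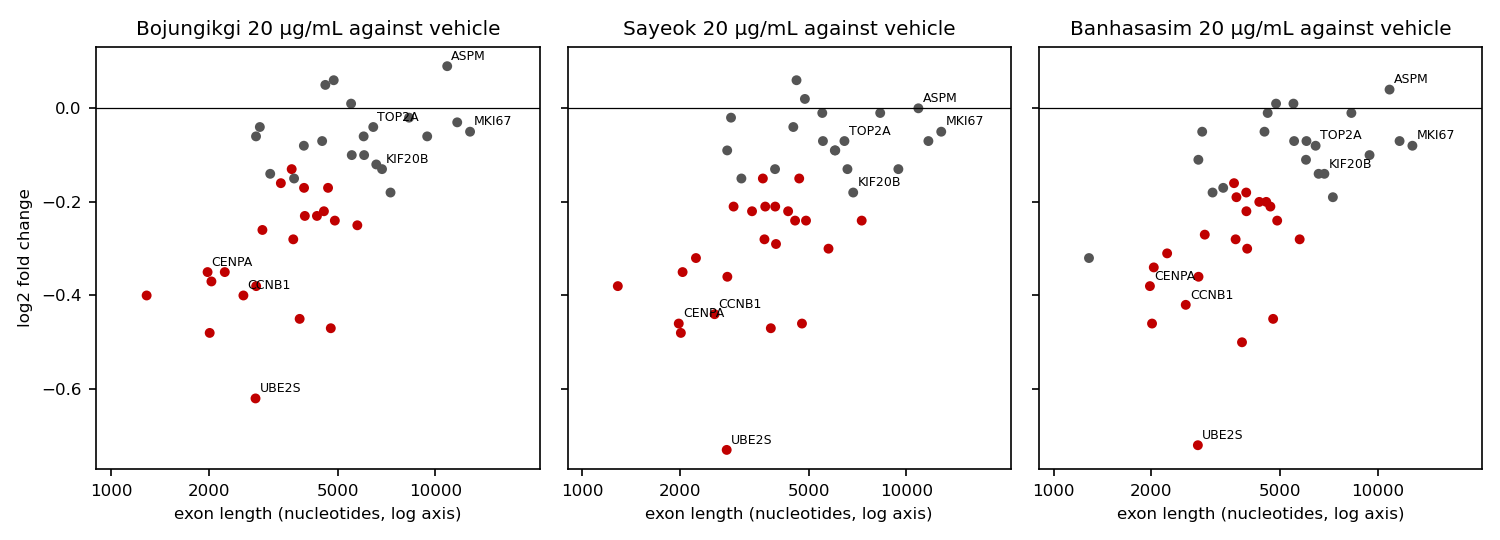
Exon length (log axis) and log2 difference from the vehicle at 20 µg/mL for the 42 genes in 3 extracts, before any length correction. Red points passed an adjusted p of 0.05. Short genes such as UBE2S, CCNB1 and CENPA lie lowest, and long ones such as MKI67 and ASPM near 0.

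Yijung had 1 library a dose, so its values have no replicate check and no test was made. Of the 42 genes, 23 were below every vehicle library at all 3 doses and none was above, against 17.2% of all genes below and 15.8% above. The medians of the members were -0.187 at 20, -0.135 at 100 and -0.106 at 500 µg/mL, with those of all genes at -0.007, -0.014 and -0.014. UBE2S was at 135, 159 and 155 CPM at 20, 100 and 500 µg/mL, against at least 200 CPM in the vehicle. PTTG1 was at 81.2, 77.7 and 85.4 CPM, BIRC5 at 89.3, 92.4 and 91.2 CPM and PLK1 at 140, 145 and 152 CPM. CCNB1 was at 150, 158 and 165 CPM and CDC20 at 142, 154 and 149 CPM, all below the vehicle range. CCNA2 (132, 141 and 147 CPM) reached from below that range to above it. AURKA was at 145, 154 and 151 CPM, CDK1 at 104, 106 and 112, TPX2 at 268, 280 and 293, TOP2A at 473, 482 and 500 and MKI67 at 613, 702 and 664 CPM.

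Genes that work with the members were read from 7 lists that hold none of the 42. In the 500 against 20 µg/mL comparisons few passed. SKA3, a kinetochore protein that couples chromosomes to microtubules, rose with Bojungikgi (0.16, SE 0.04, adjusted p = 0.0273) and with Sayeok (0.21, SE 0.04, adjusted p = 0.00136, edgeR), as 1 of 27 kinetochore and centromere genes in each. CDC25A, the CDC25 that acts from G1 on, rose with both as 1 of 20 checkpoint and CDK1 regulators (0.18 and 0.16, adjusted p = 0.0311 and 0.0499). CENPH, a constitutive centromere protein, rose with Banhasasim (0.29, SE 0.09, adjusted p = 0.0396). Of 36 genes of G1/S and DNA replication, RRM2, a subunit of ribonucleotide reductase, rose with Bojungikgi (0.14), CDC6, a replication licensing factor, with Sayeok (0.18), and the primase PRIM1 and the licensing factor CDT1 with Banhasasim (0.33 and 0.32). Of the other lists, the 22 passenger, cohesin and condensin genes had the highest median with Bojungikgi (0.131, with 15 at an unadjusted p below 0.05), but none was called by edgeR. Nor was any of the 16 DREAM, MuvB, B-MYB, E2F and NF-Y genes, the 19 APC/C genes or the 25 spindle, centrosome and cytokinesis genes, of which 3, 3 and 8 had an unadjusted p below 0.05 with Bojungikgi, 3, 2 and 4 with Sayeok and 4, 1 and 3 with Banhasasim. Of all genes, 12.9%, 13.9% and 20.6% had an unadjusted p below 0.05 with Bojungikgi, Sayeok and Banhasasim.

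Against the vehicle at 20 µg/mL, the spindle, centrosome and cytokinesis list had the most genes called lower of the 7: 11 of 25 with Bojungikgi, 14 with Sayeok and 11 with Banhasasim, each with 1 higher, and medians of -0.171, -0.213 and -0.211. HMGB2, a chromatin protein of dividing cells, was lower by 0.55, 0.59 and 0.58 on the log2 scale, and GTSE1, a microtubule-bound G2 protein, by 0.37, 0.39 and 0.34. The list of 22 passenger, cohesin and condensin genes was mixed, with 2, 1 and 1 higher and 4, 4 and 3 lower. Its medians were 0.01, -0.006 and -0.01. CDCA8, borealin, a partner of BIRC5 and AURKB in the passenger complex, was lower (-0.39, -0.33 and -0.36). STAG2 of the same list was higher (0.25, 0.21 and 0.23). The list of 16 regulators was mixed, with 3, 4 and 2 higher and 3, 3 and 2 lower, and medians of 0.089, 0.051 and 0.079. MYBL2, the gene of B-MYB, was lower (-0.25, -0.22 and -0.28). RB1, which restrains E2F, was higher (0.21, 0.20 and 0.22), as was RBL2, the p130 subunit of DREAM (0.20, 0.17 and 0.23). NFYC, a subunit of NF-Y, was lower with Bojungikgi (-0.21) and Banhasasim (-0.23). With Sayeok it was not among the 4 called genes with the smallest p, so its value there is not given. The G1/S and DNA replication list was mixed, with 4 higher and 4 lower of 36 for Bojungikgi, 5 and 6 for Sayeok and 1 and 4 for Banhasasim, and medians of 0.003, -0.04 and -0.037. Of 27 kinetochore and centromere genes, 8, 8 and 6 were lower and 2, 2 and 0 higher. Of 19 APC/C genes, 4, 5 and 5 were lower, among them FZR1, the coactivator of late mitosis and G1 (-0.22, -0.26 and -0.26). Of 20 checkpoint and CDK1 regulators, 4, 3 and 3 were higher and 5, 4 and 3 lower. Of the G1/S and DNA replication list, TYMS, thymidylate synthase, was lower in all 3 (-0.23, -0.24 and -0.25). So were CDK4 (-0.25, -0.3 and -0.29) and TK1 (-0.29, -0.3 and -0.33). MCM6, a subunit of the replicative helicase, was higher with Bojungikgi (0.17) and Banhasasim (0.15). With Sayeok MCM6 was not among the 4 called genes with the smallest p, so its value there is not given.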

How the data were processed

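The authors made the deposited expected counts per gene with RSEM 1.3.3, and STAR 2.7.3a, Trim Galore 0.6.5, FastQC 0.11.9 and GRCh38 are named beside it, per the submitters' processing notes. The annotation release and strand setting were not given in the sources used here. Of 270 columns 30 were used, and 240 that matched no sample here were not. Expected counts were rounded. edgeR 4.0.16 (R 4.3.3) with TMM, filterByExpr at a minimum count of 10 (18783 genes) and quasi-likelihood tests was fitted on all 30 libraries with 1 mean for each of 13 groups, which left 17 residual degrees of freedom. P-values were Benjamini-Hochberg adjusted over all genes, and a call is an adjusted p below 0.05. The script was tested on simulated data. Planted 1.2-fold changes were called for 48% of genes for Sayeok and 24% for Banhasasim between 500 and 20 µg/mL. For Sayeok 500 µg/mL against the vehicle the share was 44%. Planted 1.5-fold changes were called for 96%, 100% and 98%. Changes below 1.2-fold were not planted, so an uncalled member may still differ by a small amount. DESeq2 1.42.0 was an alternative. Coordinates and exon lengths came from GENCODE 29, promoters from RefSeq (GRCh38.p14). The members and lists were chosen with earlier results of these data known. Members could all be named. Members called between 500 and 20 µg/mL and 7 core genes (CCNB1, CDK1, CDC20, PLK1, AURKA, TOP2A and MKI67) were followed through the libraries. For lists, at most 4 called genes with the smallest p, and for Yijung the 4 members farthest from the vehicle, could be named.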

Additional observations from a re-analysis of the deposited data

How the results depend on the processing

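Calls between doses rested on few members. Between 500 and 20 µg/mL Bojungikgi, 1 member was called, 0 with RLE factors, without mitochondrially encoded genes or on the groups compared alone, 2 with DESeq2 and 6 with the length and GC correction, which was chosen after seeing the data. Sayeok had 3, 5 with DESeq2 and 8 with the correction, while CCNA2 and CCNB1 lost their calls without a filter (adjusted p = 0.358 and 0.0556) and CCNA2 on the groups compared alone (0.0778). Sayeok 500 against 100 µg/mL went from 0 to 1 with a minimum count of 50, the correction or DESeq2. Banhasasim 500 against 20 and 500 against 100 µg/mL went from 0 to 2 without a filter and 1 with the correction. The difference between Sayeok and Banhasasim went from 0 to 2 without a filter and 1 with the correction, and that between Banhasasim and Bojungikgi to 4, 1 and, with DESeq2, 1. On the groups compared alone, members called against the vehicle were 2 for Bojungikgi 500, 7 for Bojungikgi 100, 8 for Sayeok 500, 6 for Sayeok 100, 7 for Banhasasim 500, 0 for Banhasasim 100 and 2 for Banhasasim 20 µg/mL. With the correction they were 31 for Bojungikgi 100, 34 for Bojungikgi 20, 22 for Sayeok 500, 36 for Sayeok 20, 30 for Banhasasim 100 and 33 for Banhasasim 20 µg/mL. Over the 9 vehicle comparisons, 5.56% to 15.4% of all genes were called lower in the main fit. The shares were 0.123% to 6.15% on the groups compared alone and 5.37% to 15.5% with the correction. Shares of all genes are not given for every setting, so a change in a count cannot be read as particular to the members. The cause of the changes in these counts was not tested.

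Leaving out 1 library gave 0 to 1 (Bojungikgi) and 1 to 2 (Sayeok) between 500 and 20 µg/mL, 0 to 2 for Banhasasim 500 against 20 and against 100 µg/mL, and 0 to 3 for Banhasasim against Bojungikgi. Against the vehicle it gave 12 to 19 for Bojungikgi 100, 12 to 19 for Banhasasim 500, 8 to 18 for Banhasasim 100 and 10 to 20 for Banhasasim 20 µg/mL. Where 1 Banhasasim library was left, it was assumed to vary like the other groups. Without 1 library, uncalled values between 500 and 20 µg/mL turned sign for CDK1 (-0.08 to 0.03) and MKI67 (-0.01 to 0.24) with Bojungikgi, both without 500 µg/mL replicate 2, and for AURKA (-0.02 to 0.02) and MKI67 (-0.08 to 0.03) with Sayeok. MKI67 with Sayeok was also 0.06 with the correction. Same-numbered replicates did not deviate together (correlations -0.16 to 0.195), and with a replicate block 192 of the single-gene results kept their side of the threshold and 1 did not (MAD2L1 with Banhasasim at 100 µg/mL against the vehicle, -0.21, adjusted p = 0.0704, edgeR). Between doses, CDC20 0.24, CCNB1 0.20, CCNA2 0.14 and TPX2 0.16 were called with the block. The lowest count of any member was 656.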
